A study of Homo sapiens with 5 samples.

Results

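The histone gene cluster on the short arm of human chromosome 6 was taken as 2 windows of build hg19, positions 26000000 to 26300000 (300 kb) and 27050000 to 27900000 (850 kb), separated by a gap of 750 kb. Members were all peaks with their midpoint in either window. They numbered 754 of the 1150695 peaks in the 6 deposited lists, and the gap held 208. All lists are from U2932, an established line of human lymphoma cells, which received no treatment. Chromatin was cross-linked, sonicated and precipitated with rabbit polyclonal antibody 1 or antibody 2 (both against PRDM11, a PR domain protein) or with an RNA polymerase II antibody, and the recovered DNA was sequenced (ChIP-seq). Peaks of each library were called once against rabbit IgG and once against input DNA, and the IgG calls are the ones described wherever input is not mentioned. Each antibody was used in 1 library, so no value has an error between replicates and no test between conditions was possible. The brackets after shares hold exact (Clopper-Pearson) 95% intervals, those after counts per 10 kb exact Poisson 95% intervals, those after ratios exact conditional 95% intervals and those after medians order-statistic 95% intervals. They treat peaks as independent and describe counting error alone. The lists give positions without read counts, so depth is unknown.

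Histones package DNA into nucleosomes: H2A, H2B, H3 and H4 form the core, and H1 binds the linker DNA. Most genes of the cluster are replication-dependent: RNA polymerase II transcribes them mainly during DNA synthesis, they lack introns, and their mRNAs end in a stem-loop in place of a poly(A) tail. Many H2A and H2B genes are arranged as divergent pairs that share 1 promoter region.

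In the gene order of RefSeq on chromosome 6 (GRCh38.p14, used for order alone), 53 protein-coding histone genes lie between H1-1 and H2BC17, both included: 6 H1, 11 H2A, 14 H2B, 10 H3 and 12 H4 genes. From H1-1 to H4C8 there are 9 and then 23 histone genes, with 1 other protein-coding gene between these runs. Then follow 9 other genes, from BTN3A2 to ZNF322, which include 6 butyrophilin genes, known for roles in immune signalling. A run of 5 histone genes from H2BC11 to H2AC12, 5 other genes from PRSS16 to ZNF184, and a run of 16 histone genes from H2BC13 to H2BC17 complete the order. Because no annotation of hg19 was used here, peaks were not assigned to single genes. The sources used here do not give how reads from near-identical histone gene copies were placed, and its part in the results was not tested.

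Promoter sequences are shown as background on the genes of this cluster, to which peaks were not assigned. They show what some of these genes carry before their starts. RefSeq promoters (GRCh38.p14) were matched by symbol for 48 of the 53 genes. The 250 bases before the start of 1 gene per family are printed, taking the earliest member in gene order that had an entry. H3C1 lies on the plus strand and the other genes shown on the minus strand of chromosome 6. Capitals mark TATAAA (the TATA box), CCAAT (the CCAAT box) and ATTTGCAT (the octamer, bound by OCT proteins) on either strand.
H1-1: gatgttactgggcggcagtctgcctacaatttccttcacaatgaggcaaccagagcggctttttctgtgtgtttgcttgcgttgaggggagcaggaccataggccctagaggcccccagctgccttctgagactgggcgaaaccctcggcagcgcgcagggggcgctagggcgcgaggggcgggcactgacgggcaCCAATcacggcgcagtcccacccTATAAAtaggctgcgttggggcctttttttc
H2AC4: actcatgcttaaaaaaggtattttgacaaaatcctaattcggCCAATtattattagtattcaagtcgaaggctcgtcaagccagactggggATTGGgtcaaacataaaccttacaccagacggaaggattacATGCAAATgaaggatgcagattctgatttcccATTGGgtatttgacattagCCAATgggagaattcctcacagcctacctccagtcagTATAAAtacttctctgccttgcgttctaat
H2BC3: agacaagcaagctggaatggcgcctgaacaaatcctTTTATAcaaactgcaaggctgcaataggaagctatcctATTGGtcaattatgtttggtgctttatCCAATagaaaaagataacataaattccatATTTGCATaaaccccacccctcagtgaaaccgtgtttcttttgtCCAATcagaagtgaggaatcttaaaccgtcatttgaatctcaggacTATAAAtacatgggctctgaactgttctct
H3C1: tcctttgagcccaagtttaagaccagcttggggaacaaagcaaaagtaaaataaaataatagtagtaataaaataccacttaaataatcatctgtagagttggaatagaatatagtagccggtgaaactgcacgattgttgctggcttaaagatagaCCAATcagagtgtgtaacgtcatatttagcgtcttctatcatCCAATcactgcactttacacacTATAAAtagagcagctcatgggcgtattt
H4C2: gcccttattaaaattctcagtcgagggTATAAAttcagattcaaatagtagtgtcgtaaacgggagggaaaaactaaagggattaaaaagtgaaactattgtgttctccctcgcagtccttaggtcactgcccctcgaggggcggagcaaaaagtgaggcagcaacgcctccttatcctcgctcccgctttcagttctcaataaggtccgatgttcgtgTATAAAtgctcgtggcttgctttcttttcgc

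TATAAA stood in all 5 printed promoters, CCAAT in all but that of H4C2, and the octamer in those of H2AC4 and H2BC3. Searched on both strands of the same 250 bases, TATAAA was found in 31 of the 48 histone promoters (64.6%), against 10.7% of all 35116 promoters. CCAAT was found in 41 of 48 (85.4%), against 32.0% of all promoters, and it was in every H1, H2A, H2B and H3 promoter matched but in 3 of 10 H4 promoters. The octamer was found in 20 of 48 (41.7%), against 1.63% of all promoters. It was in 8 of 10 H2A and 11 of 14 H2B promoters, in 1 of 8 H3 promoters, and in none of the 6 H1 and 10 H4 promoters. No match of 1 motif overlapped a match of another in these 48 promoters. A match describes letters in the sequence and was not set beside any single peak.

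RNA polymerase II peaks were dense in the histone windows and many were wide. The windows held 93 peaks, or 80.9 per Mb, against 17 peaks or 22.7 per Mb in the gap, a ratio of 3.57 (2.11 to 6.38). The rest of chromosome 6 had 13.4 per Mb, and the ratio to it was 6.05 (4.86 to 7.44). The first window was the denser, with 50 peaks or 167 per Mb, against 43 peaks or 50.6 per Mb in the second, a ratio of 3.29 (2.15 to 5.07). Peaks covered 99.4 kb of the windows, or 8.65% of their length, against 4.27 kb or 0.569% of the gap. Over chromosomes 1 to 22 and X, 0.609% of the length was covered. The covered share was 16.8% in the first window and 5.75% in the second, so both windows stood above the gap.

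**Figure D1:**
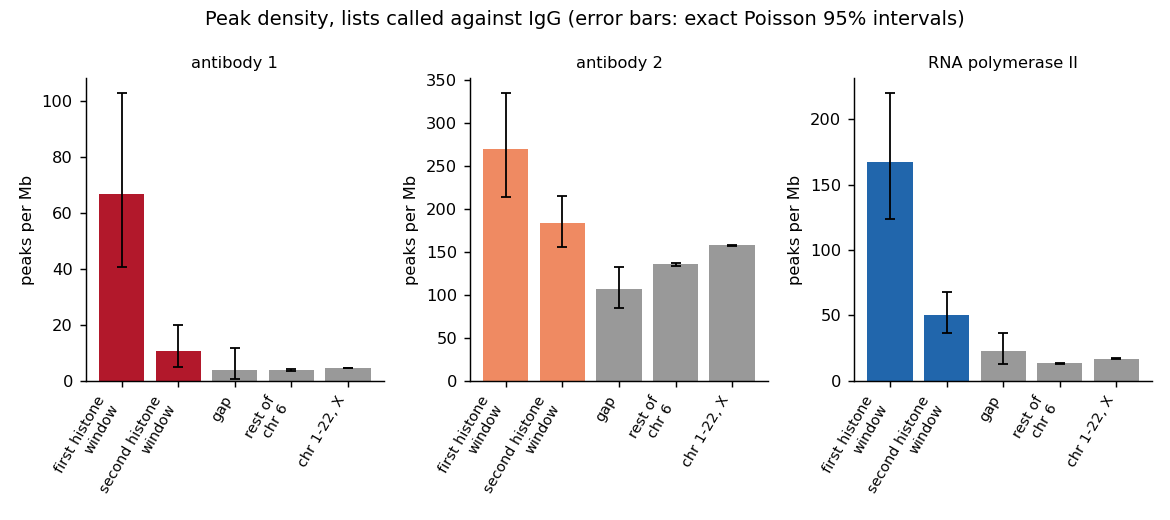
Peak density in peaks per Mb for the lists called against IgG, 1 panel per antibody, with exact Poisson 95% intervals. The first histone window is the highest bar in each panel (66.7 per Mb with antibody 1, 270.0 with antibody 2, 167 with the RNA polymerase II antibody), and the gap lies lower (4.00, 107 and 22.7 per Mb).

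The median width of RNA polymerase II peaks was 466 bp in the windows (292 to 697 bp), against 198 bp (155 to 349 bp) in the gap and 246 bp over chromosomes 1 to 22 and X. Peaks of 1000 bp or wider made up 31 of 93 (33.3%, 23.9% to 43.9%), against 0 of 17 in the gap and 4.15% of the whole list. Peaks of 2000 bp or wider numbered 15 of 93 (16.1%, 9.32% to 25.2%), against 0.550% of the whole list. The list had 276 peaks this wide, and the windows held 5.43% of them (3.07% to 8.81%) in 0.0390% of the chromosome length. In the list called against input the windows held 14 of 756 (1.85%, 1.02% to 3.09%), a lower share of a list with more such peaks. Among the window peaks called against input, 14 of 94 were this wide (14.9%, 8.39% to 23.7%), against 0.941% of that list. Peaks of 5000 bp or wider numbered 5 in the windows with either control, of 27 in the IgG list and 74 in the input list. Peaks often had close neighbours: 69 of 93 (74.2%, 64.1% to 82.7%) had another peak within 500 bp, against 8 of 17 in the gap and 55.7% of the whole list. Of the 37 peaks under 300 bp in the windows, 19 lay within 1000 bp of a peak of 1000 bp or wider. The same count was not made over the whole list, so whether this share is unusual was not tested.

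**Figure D2:**
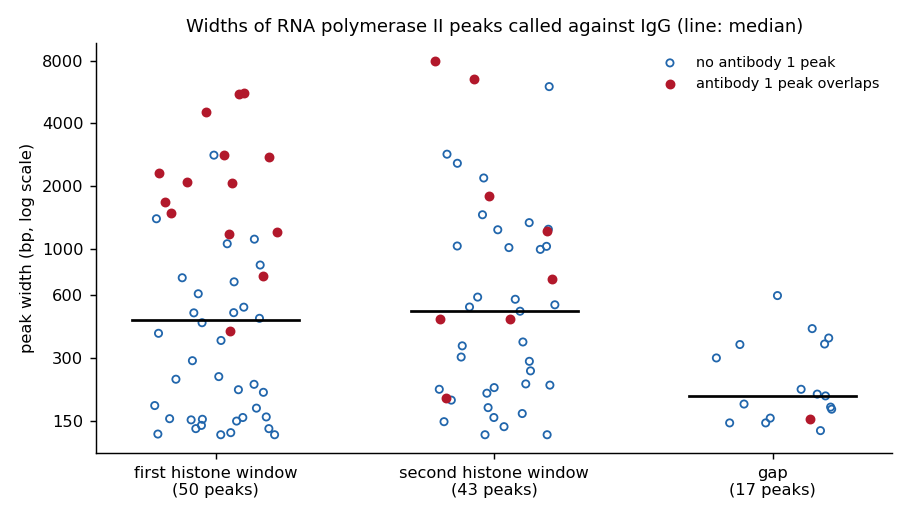
Width of each RNA polymerase II peak in bp on a log scale, for the 50 peaks of the first window, the 43 of the second and the 17 of the gap; lines are medians, and filled points overlap an antibody 1 peak. Both windows reach above 5000 bp, whereas the widest gap peak is 599 bp, and filled points are frequent among the widest peaks of the first window.

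The widest member lay in the second window at 27857159 to 27865095 (7937 bp) and was the 8th widest RNA polymerase II peak of the list. The next, also in the second window, were 27095951 to 27102469 (6519 bp, 10th in the list) and 27776255 to 27782261 (6007 bp, 14th). In the first window the widest were 26122305 to 26127876 (5572 bp, 20th) and 26195283 to 26200807 (5525 bp, 22nd). All 5 were thus among the 22 widest of 50161. The following 5 were 26156372 to 26160918 (4547 bp) in the first window, 27832694 to 27835543 (2850 bp) in the second, and 26232534 to 26235359 (2826 bp), 26215432 to 26218251 (2820 bp) and 26054146 to 26056909 (2764 bp) in the first. The gap held nothing of this size: its widest were 26596891 to 26597489 (599 bp), 26521922 to 26522337 (416 bp) and 26474336 to 26474710 (375 bp).

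The RNA polymerase II peaks were not spread evenly but stood in a few crowded stretches. When peaks with at most 20 kb between them were joined, the first window had 3 stretches. They ran from 26020511 to 26056909 (10 peaks over 36.4 kb), from 26103883 to 26130411 (9 peaks over 26.5 kb) and from 26156372 to 26286769 (31 peaks over 130.4 kb). Together they held all 50 peaks of that window. The second window had 1 crowded stretch near each end. That from 27092202 to 27116400 held 19 peaks in 24.2 kb, and the peaks covered 74.6% of it. That from 27774180 to 27865095 held 18 peaks in 90.9 kb. Between these stretches lay 6 peaks. In RefSeq order, too, the runs of 5 and of 16 histone genes are separated by other genes, although peaks and genes were not matched here. By covered length, the stretch with 31 peaks (28.3 kb) and the last one (28.5 kb) ranked 35th and 34th of 11081 stretches in the list.

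In bins of 50 kb, 9 of the 23 histone bins had at least 5000 bp of RNA polymerase II peaks, against 0 of 15 gap bins and 1.19% of 60696 bins over chromosomes 1 to 22 and X. The bin with the most peaks was 27100001 to 27150000 with 15. At the other extreme, 8 of the 23 histone bins held none, all in the second window, as did 8 of the 15 gap bins. The bin of the gap with the most, 26500001 to 26550000, had 9 peaks, but they covered 2062 bp, against 9635 bp for the 15 peaks.

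**Figure D3:**
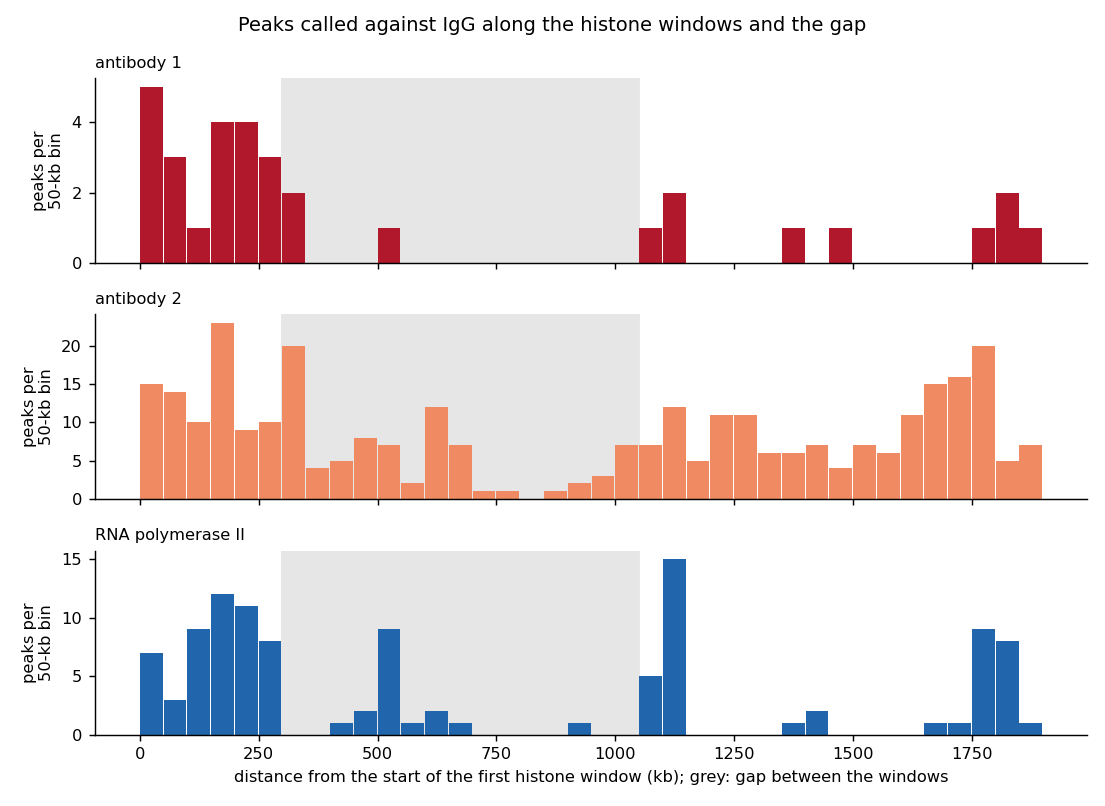
Number of peaks called against IgG in each 50-kb bin, by distance in kb from the start of the first histone window, for antibody 1 (top), antibody 2 (middle) and RNA polymerase II (bottom); grey marks the gap. RNA polymerase II peaks fill the first window, with up to 12 per bin, and both ends of the second, with up to 15, and antibody 2 peaks occur in nearly every bin.

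Antibody 1 peaks were also denser in the histone windows, on small counts. The windows held 29 of 13499 peaks, or 25.2 per Mb, against 3 peaks or 4.00 per Mb in the gap, a ratio of 6.30 (1.95 to 32.3). The ratio to the rest of chromosome 6, at 3.95 per Mb, was 6.38 (4.24 to 9.26). The first window had 20 peaks, or 66.7 per Mb, and the second 9, or 10.6 per Mb, a ratio of 6.30 (2.74 to 15.7). Against the gap, the ratio for the second window alone was 2.65 with an interval of 0.661 to 15.2, so a difference there was not detectable at these counts. Against the rest of chromosome 6 it was 2.68 (1.22 to 5.12). The median width was 295 bp in the windows (175 to 414 bp), against 189 bp (177 to 198 bp) on the rest of chromosome 6. The 3 gap peaks were 194, 129 and 123 bp wide.

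Most antibody 1 peaks of the windows lay on RNA polymerase II peaks. They did so in 26 of 29 cases (89.7%, 72.6% to 97.8%), against 1 of 3 in the gap and 55.2% of the whole list. The share was 18 of 20 in the first window and 8 of 9 in the second. Wide antibody 1 peaks overlap RNA polymerase II more often throughout the list, so widths were set side by side. Of the 10 members under 200 bp, 8 overlapped (80.0%, 44.4% to 97.5%), against 38.2% of such peaks outside the windows. Of the 5 members of 200 to 299 bp, 4 overlapped (80.0%, 28.4% to 99.5%), against 68.7% outside. Of the 14 members of 300 bp or wider, all overlapped (interval from 76.8%), against 81.1% outside. These shares do not allow for the length covered by RNA polymerase II peaks, 8.65% of the windows against 0.609% of chromosomes 1 to 22 and X. Counts per covered length are given further below. Antibody 2 peaks were overlapped by 18 of 29 (62.1%, 42.3% to 79.3%), against 0 of 3 in the gap and 47.2% of the whole list, a share inside the interval of the windows. By both overlaps, 17 members coincided with antibody 2 and RNA polymerase II (median width 382 bp), 9 with RNA polymerase II alone (181 bp), 1 with antibody 2 alone, and 2 with neither. These 4 classes were not counted over the whole list. There, 84.7% of antibody 1 peaks of 300 bp or wider overlapped antibody 2, against 27.0% of those under 200 bp, so a link with width was general.

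The 17 antibody 1 peaks that overlapped both other libraries were read along the chromosome. The earliest was 26020569 to 26021133, at 565 bp the widest antibody 1 peak of the windows, which coincided with an antibody 2 peak of 450 bp inside a 2072 bp RNA polymerase II peak. Next came 26045631 to 26046078 (448 bp) with 2 antibody 2 peaks, and 26056346 to 26056709 (364 bp). The peak at 26156478 to 26156891 (414 bp) matched an antibody 2 peak of 434 bp at the start of the 4547 bp RNA polymerase II peak. At these 4 places the overlapping antibody 2 peaks were 123 to 450 bp wide, so the libraries did not match in width throughout. Further along stood 26172826 to 26172995 (170 bp), 26188818 to 26189364 (547 bp) and 26197060 to 26197620 (561 bp). The last of these lay inside the 5525 bp RNA polymerase II peak. The first of these, of 170 bp, had no overlapping antibody 1 peak in the list called against input. A close pair, 26204800 to 26205329 (530 bp) and 26205385 to 26205765 (381 bp), was separated by 55 bases in a single RNA polymerase II peak of 1483 bp. Another pair, 26233336 to 26233485 (150 bp) and 26234824 to 26235118 (295 bp), lay in the 2826 bp peak with 1338 bases between. The last in the first window was 26271187 to 26271677 (491 bp), which overlapped an antibody 2 peak 433 bp wide. Thus 12 of the 17 were in the first window.

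In the second window there were 5 such peaks. The peak at 27145402 to 27145684 (283 bp) overlapped antibody 2 (343 bp) and an RNA polymerase II peak of only 193 bp. It stood outside the crowded stretches. That RNA polymerase II peak had no overlapping peak in the RNA polymerase II list called against input. The peak at 27782858 to 27783145 (288 bp) lay in an RNA polymerase II peak of 1796 bp. The pair 27839906 to 27840028 (123 bp) and 27840958 to 27841339 (382 bp) lay in separate RNA polymerase II peaks of 1218 and 716 bp. The last, 27858197 to 27858612 (416 bp), overlapped the widest antibody 2 peak of the windows (27858039 to 27858596, 558 bp) inside the widest RNA polymerase II peak. Over both windows antibody 1 peaks were 123 to 565 bp wide, against up to 2136 bp in the list.

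Of the 9 members with RNA polymerase II alone, 6 were in the first window. These were 26021892 to 26022230 (339 bp), 26026569 to 26026720 (152 bp), 26031943 to 26032303 (361 bp), 26055690 to 26055870 (181 bp), 26124066 to 26124189 (124 bp) and 26284758 to 26284932 (175 bp). The other 3 were 27095014 to 27095159 (146 bp), 27101606 to 27101825 (220 bp) and 27356401 to 27356870 (470 bp). The last of these stood apart from the crowded stretches, on an RNA polymerase II peak of 465 bp. The member with antibody 2 alone was 26087654 to 26087776 (123 bp), and those with neither were 26253602 to 26253724 (123 bp) and 27486959 to 27487166 (208 bp). In the gap, 26538160 to 26538282 (123 bp) overlapped RNA polymerase II, and 26305412 to 26305605 (194 bp) and 26322204 to 26322332 (129 bp) overlapped neither library.

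Seen from RNA polymerase II, 22 of 93 peaks in the windows held an antibody 1 peak (23.7%, 15.5% to 33.6%), against 1 of 17 in the gap and 14.3% of the whole list. The share was higher among wider peaks. It was 4 of 49 for peaks under 500 bp (8.16%, 2.27% to 19.6%), against 9.50% outside the windows. It was 2 of 13 for peaks of 500 to 999 bp (15.4%, 1.92% to 45.4%), against 33.7% outside. It was 6 of 16 for peaks of 1000 to 1999 bp (37.5%, 15.2% to 64.6%), against 39.6% outside, so in these 3 classes the outside value lay within the interval. Of the 15 peaks at or above 2000 bp, 10 held one (66.7%, 38.4% to 88.2%), against 30.3% (24.8% to 36.2%) of 261 such peaks outside and 32.2% of the whole list. Widths were not matched within this class, which has no upper limit. In the windows 5 of the 15 peaks were 5000 bp or wider, against 27 of 276 in the whole list. The limit of 2000 bp was chosen after the data were seen. In the first window 8 of 9 such peaks held one, and in the second 2 of 6. In the lists called against input the share was 12 of 14 (85.7%, 57.2% to 98.2%), but there 73.0% of all 756 peaks of that width held an antibody 1 peak, a value within the interval of the windows. Over all widths, 28 of 94 RNA polymerase II peaks called against input held an antibody 1 peak (29.8%, 20.8% to 40.1%), against 29.4% of that whole list. In the input lists both list-wide shares thus lay inside the intervals of the windows.

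The 10 wide RNA polymerase II peaks with antibody 1 held 13 antibody 1 peaks. Their midpoints lay 312 to 2057 bp from the nearest end, with a median of 753 bp, and 6 of the 13 were at 25% of the peak's width or more from either end. Even placement along the peaks would put 50% of midpoints there. Of the 5 widest members, 4 held a single antibody 1 peak each. Its width was 124 bp in the peak of 5572 bp and 561 bp in that of 5525 bp. In those of 6519 and 7937 bp it was 220 and 416 bp. That of 6007 bp held 5 antibody 2 peaks and none of antibody 1. The peaks of 2850 and 2192 bp in the second window held a peak of neither antibody.

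**Figure D4:**
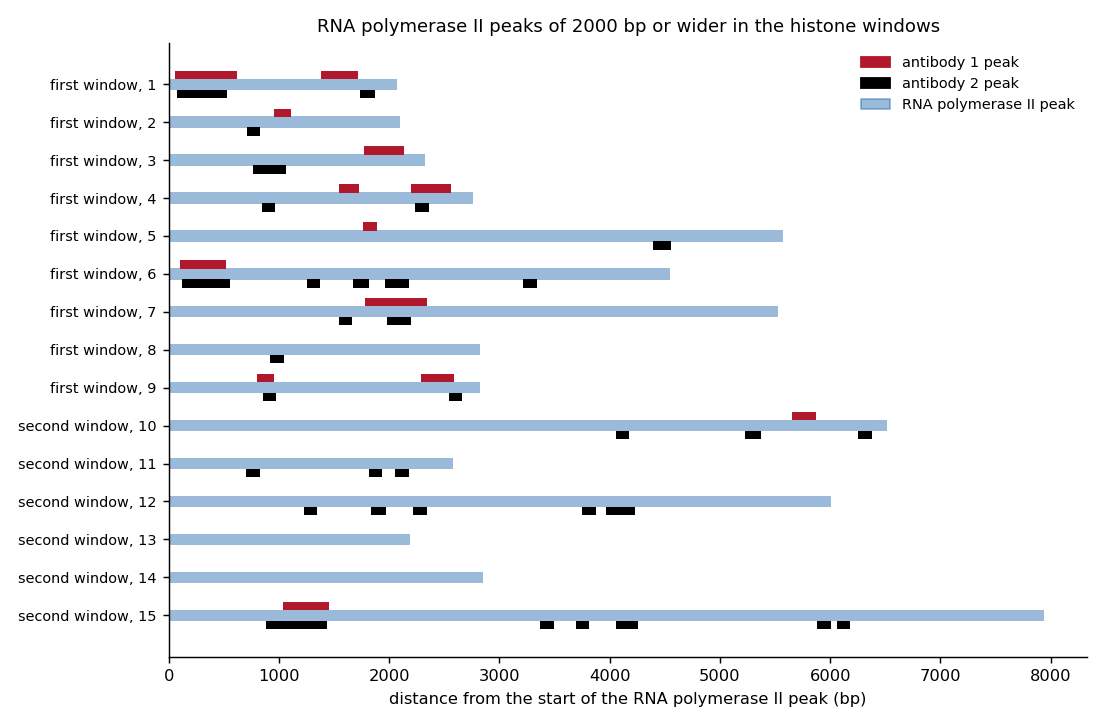
The 15 RNA polymerase II peaks at or above 2000 bp in the histone windows (blue), each drawn from its start in bp and ordered along the chromosome, with antibody 1 peaks above (red) and antibody 2 peaks below (black). Antibody 1 peaks appear in 10 of the 15, in 8 of 9 in the first window and 2 of 6 in the second.

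Antibody 2, whose list is by far the longest, had the lowest ratio of density between windows and gap, with an interval that overlapped those of the other libraries. The windows held 237 peaks, or 206 per Mb, against 80 peaks or 107 per Mb in the gap, a ratio of 1.93 (1.49 to 2.52). The ratio to chromosomes 1 to 22 and X, at 158 per Mb, was 1.30 (1.14 to 1.48). The first window had 270.0 per Mb and the second 184 per Mb, a ratio of 1.47 (1.11 to 1.94). The median width was 123 bp, the minimum of the list, in the windows, in the gap and over chromosomes 1 to 22 and X. In the windows 74.3% of peaks (68.2% to 79.7%) were at that minimum, against 80.0% (69.6% to 88.1%) in the gap. Peaks of 200 bp or wider were 26 of 237 (11.0%, 7.29% to 15.7%), against 6 of 80 in the gap and 8.66% of the whole list.

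In the windows 66 of 237 antibody 2 peaks lay on RNA polymerase II peaks (27.8%, 22.2% to 34.0%), against 1 of 80 in the gap and 3.20% of the whole list. The share was 36 of 81 in the first window (44.4%, 33.4% to 55.9%) and 30 of 156 in the second (19.2%, 13.4% to 26.3%). RNA polymerase II peaks covered 8.65% of the windows, against 0.609% of chromosomes 1 to 22 and X, so the midpoints of the antibody peaks were also counted per covered length. Inside RNA polymerase II peaks there were 5.93 antibody 2 midpoints per 10 kb in the windows (4.52 to 7.65), against 6.62 over chromosomes 1 to 22 and X. Outside them there were 1.69 per 10 kb in the windows (1.45 to 1.96), against 1.07 (0.851 to 1.34) in the gap and 1.55 over chromosomes 1 to 22 and X. Inside and outside RNA polymerase II peaks, the value of the chromosomes at large lay within the interval of the windows.

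The same count for antibody 1 gave 2.51 midpoints per 10 kb of RNA polymerase II peaks in the windows (1.63 to 3.71), against 3.68 (3.60 to 3.77) over chromosomes 1 to 22 and X, within the interval. It was 3.56 (2.11 to 5.63) in the first window and 1.43 (0.575 to 2.95) in the second. The interval of the second lay below the value of the chromosomes at large. These counts per covered length, for either antibody, did not match RNA polymerase II peaks by width. The median width was 504 bp in the second window, against 246 bp over chromosomes 1 to 22 and X. Its part in the difference was not tested. Outside RNA polymerase II peaks the windows held 4 antibody 1 midpoints, or 0.0381 per 10 kb (0.0104 to 0.0975), against 0.0235 over chromosomes 1 to 22 and X.

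RNA polymerase II peaks held an antibody 2 peak in 38 of 93 cases (40.9%, 30.8% to 51.5%), against 1 of 17 in the gap and 25.6% of the whole list. Split by width, the share was 8 of 49 under 500 bp (16.3%, 7.32% to 29.7%), against 19.7% outside the windows, and 5 of 13 at 500 to 999 bp (38.5%, 13.9% to 68.4%), against 46.8%. It was 12 of 16 at 1000 to 1999 bp (interval 47.6% to 92.7%), against 64.4% outside, and 13 of 15 at 2000 bp and above (86.7%, 59.5% to 98.3%), against 74.3%. In each of these 4 classes the outside value lay within the interval of the windows, and in the narrower 2 it was the higher. Of the 26 antibody 2 peaks of 200 bp or wider, 16 overlapped RNA polymerase II (61.5%, 40.6% to 79.8%). The share was 0 of 6 in the gap and 10.1% of such peaks in the list. These shares do not allow for the length covered by RNA polymerase II peaks. It was 8.65% of the windows, 0.569% of the gap and 0.609% of chromosomes 1 to 22 and X. Antibody 2 peaks of this width were not counted per covered length. Of the 16, 9 also overlapped an antibody 1 peak. The 10 widest antibody 2 peaks were between 280 and 558 bp. The widest 6 each overlapped antibody 1: that of 558 bp, 26020585 to 26021034 (450 bp), 26156489 to 26156922 (434 bp), 26271171 to 26271603 (433 bp), 26205366 to 26205709 (344 bp) and 27145372 to 27145714 (343 bp). The following 4 overlapped none: 26060954 to 26061281 (328 bp), 26030940 to 26031238 (299 bp), 27651031 to 27651312 (282 bp) and 27471051 to 27471330 (280 bp). Of these, that of 299 bp alone lay on RNA polymerase II.

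Most members called against IgG were also called against input. Of these IgG calls, 27 of 29 antibody 1 peaks (93.1%, 77.2% to 99.2%) were found again against input, against 81.3% of the whole list. For antibody 2 it was 223 of 237 (94.1%), against 93.2% of the list, and for RNA polymerase II 85 of 93 (91.4%), against 89.4%. In the other direction, 27 of 50 antibody 1 peaks called against input (54.0%, 39.3% to 68.2%) were found against IgG, against 19.5% of the whole list. For antibody 2 it was 223 of 251 (88.8%, 84.3% to 92.5%), against 89.1%, within the interval. For RNA polymerase II it was 77 of 94 (81.9%, 72.6% to 89.1%), against 52.4%. Against input the windows had 43.5 antibody 1 peaks per Mb, against 6.67 in the gap, a ratio of 6.52 (2.62 to 21.0), and 81.7 RNA polymerase II peaks per Mb, against 26.7, a ratio of 3.07 (1.88 to 5.25). For antibody 2 the ratio was 1.97 (1.53 to 2.56). Of the antibody 1 peaks called against input, 39 of 50 lay on RNA polymerase II peaks (78.0%, 64.0% to 88.5%), against 44.9% of that list. Against chromosomes 1 to 22 and X, the antibody 1 density ratio depended on the control: it was 2.37 (1.76 to 3.13) in the input list and 5.50 (3.68 to 7.91) in the IgG list. Against the rest of chromosome 6 it was similar with both controls, at 6.82 (5.03 to 9.06) with input and 6.38 (4.24 to 9.26) with IgG. In the input list antibody 1 had 18.3 peaks per Mb over chromosomes 1 to 22 and X but 6.37 on the rest of chromosome 6. For the second window alone the input ratio to chromosomes 1 to 22 and X was 1.35 (0.834 to 2.06), so no difference from the chromosomes at large was detectable there. With input, the ratio of that window was 3.88 (2.39 to 5.96) to the rest of chromosome 6. To the gap it was 3.71 (1.36 to 12.6) with input, beside 2.65 (0.661 to 15.2) with IgG.

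The peaks nearest to the edges show how far the windows follow the RNA polymerase II stretches. Before the first window the nearest peak was 25992150 to 25993294 (1145 bp), 6706 bp outside, and the earliest inside was 26020511 to 26022582 (2072 bp). After the first window the nearest was 26440864 to 26441065 (202 bp), 140864 bp away, and the last inside was 26286597 to 26286769 (173 bp). Before the second window the nearest was 26924780 to 26924992 (213 bp), and the earliest inside was 27092202 to 27092491 (290 bp). After it the nearest was 28048020 to 28048154 (135 bp), 148020 bp away, and the last inside was the widest member. For antibody 1 the nearest peaks outside were 270375 bp before the first window and 192189 bp after the second, and 26305412 to 26305605 lay 5412 bp after the first.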

How the data were processed

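Chromatin immunoprecipitation and sequencing was done in 1 library each for antibody 1, antibody 2 and RNA polymerase II, with 1 IgG and 1 input library. Build hg19 and the tools MACS2 2.0.9, Bowtie 0.12.7 and SAMtools are listed in the submitters' processing notes, without order or settings; the control and the q threshold of 0.1 appear only in the names of the 6 deposited lists. The lists have 3 columns (chromosome, start, end) and no other value. Starts were moved to count from 1.

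Groups follow the antibody that each label names. Peaks were assigned to a window by midpoint. Overlap meant at least 1 bp. Named peaks were all antibody 1 peaks, the 10 widest of the other lists, the 3 widest RNA polymerase II peaks of the gap, the places shared by all 3 libraries and extreme 50-kb bins. Members and lists were chosen with earlier results of these data known. Stretches, width classes, motifs, midpoints per covered length and gene order were added after seeing the data. The planned count of peaks at histone gene starts was not run, since no hg19 annotation was used. Alternatives were the other control, both controls, peaks of at least 200 bp, any overlap with a window, each window alone, edges narrowed by 25 kb, 50% coverage and lists with different controls. The code was tested on simulated data and against bedtools 2.31.1. Python 3.11.15, NumPy 2.4.6, pandas 2.3.3, SciPy 1.17.1 and matplotlib 3.10.9 were used.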

Additional observations from a re-analysis of the deposited data

How the results depend on the processing

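Of 107 values under the alternatives, over 16 results, 88 stayed within the 95% interval of the reported value and 19 did not. The 88 include every value for any overlap with a window. That setting took in the same peaks as the midpoint rule, so its values could not differ. All 20 ratios of density between windows and gap stayed above 1. With peaks of at least 200 bp, the median width was 265 bp for antibody 2 and 729 bp for RNA polymerase II, the antibody 2 density ratio was 2.83, 57.7% of antibody 2 peaks overlapped RNA polymerase II and 18.8% of RNA polymerase II peaks overlapped antibody 2. With this limit 100.0% of the peaks of each library were found again against input, as were 100.0% of antibody 1 peaks in the second window alone. In the first window alone the density ratios were 2.53 for antibody 2 and 7.35 for RNA polymerase II, and the shares were 44.4% for antibody 2 in RNA polymerase II and 88.9% for RNA polymerase II peaks at or above 2000 bp with antibody 1; in the second they were 19.2% and 33.3%. Requiring 50% of the peak to be covered gave 34.5% for antibody 1 in antibody 2, 4.30% for RNA polymerase II in antibody 1 and 3.23% for RNA polymerase II in antibody 2. Of the RNA polymerase II peaks at or above 2000 bp in the whole list, 1.85% lay in the windows with input as control, an alternative added after seeing the data. A width limit raises a median width and a coverage limit lowers an overlap share by construction; for all remaining differences the cause was not tested. The antibody 1 density ratio ranged widely on its 3 gap peaks, and was 17.3 (2.85 to 711) with edges narrowed by 25 kb, which left 1 gap peak; at 200 bp or wider the gap had none, so no ratio was computed. Limits of 1500 and 3000 bp for wide peaks, added after seeing the data, gave 70.6% and 83.3%. Peaks at histone gene starts were not run. No paired analysis was possible because each antibody had 1 library. Depth is unknown, so how many peaks at the minimum width rest on few reads was not tested.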

Other observations

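The bins named next were picked out after their values were seen. Antibody 2 peaks were crowded in the gap bin next to the first window, 26300001 to 26350000, which held 20 antibody 2 and 2 antibody 1 peaks but no RNA polymerase II peak. They were also frequent before and at the start of the last RNA polymerase II stretch, with 15, 16 and 20 peaks in the bins that begin at 27650001, 27700001 and 27750001, where RNA polymerase II had 1, 1 and 9 peaks. The 4 bins of the gap from 26700001 to 26900000 were the sparsest part of the gap, with 1, 1, 0 and 1 antibody 2 peaks and no peak of the other libraries.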
